A study of Mus musculus with 27 samples.

Results

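The 8 chemokine receptors described here are *Ccr1*, *Ccr2*, *Ccr7*, *Ccr9*, *Cx3cr1*, *Cxcr3*, *Cxcr4* and *Cxcr6*, which were read on Illumina MouseWG-6 BeadChips in colon myeloid cells and splenic CD4 T cells. Members were chosen by symbol, and each had 1 probe among the 45281 probes of the table, which carry 30869 symbols. The colon cells were FACS-purified from the lamina propria of WT or *Mbd2*-/- mice (Mbd2KO in the labels) on a C57BL/6 background after 6 days of 2% DSS in the drinking water, a treatment that breaks the epithelial barrier and causes colitis. There were 5 WT and 5 Mbd2KO arrays of monocytes (CD11b+Ly6C+), 5 and 5 of macrophages (CD11b+Ly6C-MHC-II+F4/80+), and 2 WT and 3 Mbd2KO arrays of CD11b-CD11c+CD103+ dendritic cells (CD11bnegDC in the labels, here cDC1s). Splenic CD4+ T cells (CD4plusTcell in the labels) had 1 array per genotype, taken 6 weeks into a T cell transfer model of colitis, without DSS, and the labels do not say which cells or hosts carried the genotype. All colon mice had received DSS, so no value is from an untreated colon. *Mbd2*, the methyl-CpG-binding protein removed in the Mbd2KO mice, had 1 probe that was detected on 0 of 27 arrays, so the genotype could not be checked on the arrays. The knockout is not limited to one cell type, so effects within a sorted cell and effects of the surrounding tissue cannot be told apart.

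Chemokine receptors are G protein-coupled receptors with which leukocytes follow gradients of small secreted chemokines. *Ccr2* draws Ly6C+ monocytes out of the bone marrow towards Ccl2 and Ccl7, and *Ccr1* answers to Ccl3 and Ccl5. *Cx3cr1*, the receptor of fractalkine (Cx3cl1), is known to rise as monocytes mature into gut macrophages. *Ccr7* leads dendritic cells and naive T cells to lymph nodes, *Cxcr3* leads activated lymphocytes to interferon-induced ligands, *Cxcr4* binds Cxcl12, *Cxcr6* binds Cxcl16 and *Ccr9* directs lymphocytes and plasmacytoid dendritic cells to the small intestine.

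Because Mbd2 binds methylated CG pairs, the 250 bases before the start of 3 receptors whose levels the results turn on are shown, with every CG in capitals. The sequences are from RefSeq on GRCm38.p6 and read 5′ to 3′ along the gene, all on the minus strand. *Cxcr4* (chr1:128592300-128592549) held 19 CG, *Cx3cr1* (chr9:120068297-120068546) held 4 and *Cxcr3* (chrX:101734148-101734397) held 3.
Cxcr4: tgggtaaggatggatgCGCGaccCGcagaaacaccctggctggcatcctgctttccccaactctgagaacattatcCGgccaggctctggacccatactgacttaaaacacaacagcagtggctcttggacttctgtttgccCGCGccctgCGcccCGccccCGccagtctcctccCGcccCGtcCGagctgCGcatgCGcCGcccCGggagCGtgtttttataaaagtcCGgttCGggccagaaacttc
Cx3cr1: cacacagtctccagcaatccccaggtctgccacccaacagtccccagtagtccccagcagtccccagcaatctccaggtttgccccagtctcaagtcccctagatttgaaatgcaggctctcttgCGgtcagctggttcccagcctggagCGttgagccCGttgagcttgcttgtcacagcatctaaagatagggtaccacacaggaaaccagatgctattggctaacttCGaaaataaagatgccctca
Cxcr3: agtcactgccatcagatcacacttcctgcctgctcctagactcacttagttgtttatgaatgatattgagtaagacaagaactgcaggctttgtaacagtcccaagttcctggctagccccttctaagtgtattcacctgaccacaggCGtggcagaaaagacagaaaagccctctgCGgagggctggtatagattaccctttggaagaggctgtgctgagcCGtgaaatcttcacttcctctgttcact
The motif searched was CG, which reads the same on both strands, and 92.1% of 32841 windows of this length held at least 1, with a median of 6. As many CG as *Cxcr4* or fewer were found in 82.0% of windows, against 44.4% for *Cx3cr1* and 37.8% for *Cxcr3*. Windows were matched for 7 of the 8 receptors, all but *Ccr7*. The windows of *Ccr9* and *Cxcr6* held 3 CG each, and those of *Ccr1* and *Ccr2* held 1 each. The *Ccr2* window (chr9:124101933-124102182) lies inside the gene span given below, so it is not upstream of that start. Methylation was not measured on these arrays. In the same build *Ccr9* (chr9:123767211-123783457), *Cxcr6* (chr9:123806477-123811754), *Ccr1* (chr9:123962126-123968692) and *Ccr2* (chr9:124101918-124109140) lie near each other, *Cx3cr1* (chr9:120048683-120068296) lies on the same chromosome, *Ccr7* lies on chromosome 11 (chr11:99144199-99155077), *Cxcr3* on the X chromosome (chrX:101731535-101734147) and *Cxcr4* on chromosome 1 (chr1:128588199-128592299).

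Values are log2 intensities after background correction and quantile normalization of the 25 colon arrays, unless stated. An array detected a probe where its detection p against the negative control probes of that array, which is not adjusted, was under 0.05. The arrays detected 16024 to 18608 probes each. The levels of different probes cannot be set against each other, so each receptor is compared with itself across cells. The sorted cells carried the markers of their labels. The summed normalized intensity of 10 cDC1 markers was 13025 to 14872 on cDC1 arrays and 1158 to 2426 on the other colon arrays. That of 9 monocyte markers was 20471 to 25688 on monocyte, 10962 to 16262 on macrophage and 6672 to 9822 on cDC1 arrays. That of 11 macrophage markers was 67574 to 78748 on macrophage, 47159 to 53019 on monocyte and 33579 to 36537 on cDC1 arrays. The last 2 lists thus separated the sorts less widely than the first. All colon sorts also carried epithelial markers, 10 genes with a summed intensity of 4402 to 16563, and every colon array detected at least 9 of 12 T cell markers.

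Of the 8 receptors, 3 (*Ccr7*, *Cxcr3* and *Cxcr4*) were detected on all 27 arrays. *Cx3cr1* was detected on 26 arrays, missing 1 of the 3 Mbd2KO cDC1 arrays. *Cxcr6* was detected on 13 arrays, 11 of them from the colon. *Ccr2* was detected on 3 arrays, all from the colon, and *Ccr1* and *Ccr9* on none.

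**Figure D1:**
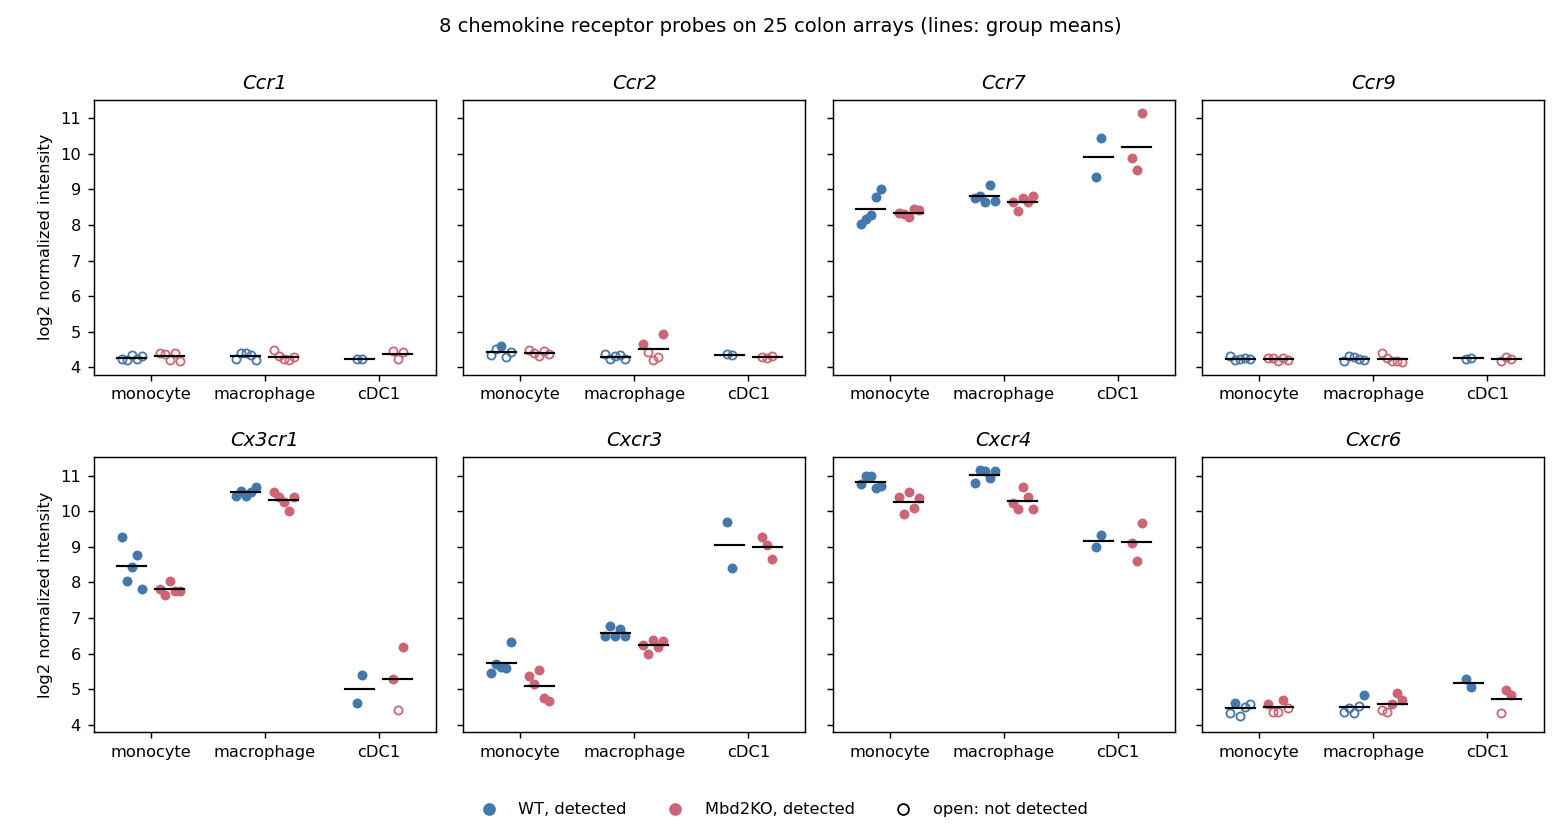
Log2 normalized intensity of the 8 receptor probes on each of the 25 colon arrays, 1 panel per receptor, by cell type and genotype (blue WT, red Mbd2KO, open circles not detected, lines group means). *Cx3cr1* is highest in macrophages, *Ccr7* and *Cxcr3* in cDC1s, *Cxcr4* is lowest in cDC1s, and the *Ccr1*, *Ccr2* and *Ccr9* probes stay between 4 and 5 in all cells.

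The probes of *Ccr1*, *Ccr2* and *Ccr9* gave no level for the colon cells beyond the background. The *Ccr1* probe ranged from 81.6 to 93.4 in deposited intensity over the 10 monocyte arrays, from 80.8 to 100.1 over the 10 macrophage arrays and from 78.1 to 88.5 over the 5 cDC1 arrays. *Ccr9* read 81.7 to 92.2 in monocytes, 77.2 to 97.7 in macrophages and 78.6 to 89.7 in cDC1s. Both receptors were at background in the T cells as well, so no cell type here showed either probe above background. *Ccr2*, the receptor by which Ly6C+ monocytes are usually recognised, was detected on 1 of 10 monocyte arrays, at a detection p of 0.0459. On the 5 Mbd2KO macrophage arrays it read 4.65, 4.45, 4.22, 4.29 and 4.95, and the first and last of these were its other detections. The WT macrophages read 4.23 to 4.38 and were not detected on any array. These 3 receptors could not be tested for genotype within a cell type or between cell types, and values at background give no order between groups. *Ccr2* entered a single comparison, that of the genotype effects in cDC1s and macrophages, which differed by -0.27 (SE 0.18, limma adjusted p 0.385).

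*Cx3cr1* separated the 3 colon cell types without overlap. The WT macrophages read 10.44, 10.56, 10.43, 10.53 and 10.68 and the Mbd2KO macrophages 10.53, 10.41, 10.27, 10.02 and 10.40. The WT monocytes read 9.28, 8.03, 8.43, 8.76 and 7.81, and the Mbd2KO monocytes 7.81, 7.64, 8.05, 7.76 and 7.75. All monocyte arrays thus lay below all macrophage arrays, and the WT monocytes were more spread (SD 0.58, n = 5) than the WT macrophages (SD 0.10, n = 5). The cDC1s read 4.60 and 5.39 in WT and 5.27, 4.41 and 6.17 in Mbd2KO, where the array at 4.41 did not detect the probe. Over both genotypes *Cx3cr1* was 4.91-fold higher in macrophages than in monocytes (log2 difference 2.30, SE 0.18, limma adjusted p 6.51e-10). It was 7.95-fold lower in cDC1s than in monocytes (log2 difference -2.99, SE 0.22, limma adjusted p 7.53e-11) and 39.1-fold lower than in macrophages (log2 difference -5.29, SE 0.22, limma adjusted p 2.54e-15). Without background correction the 2 log2 differences of *Cx3cr1* in cDC1s were smaller, -1.71 and -3.73, and still passed. The order macrophage, monocyte, cDC1 held in each genotype, with macrophages above monocytes by 2.07 in WT and 2.53 in Mbd2KO on the log2 scale.

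*Ccr7* was highest in cDC1s, the cells that carry antigen to lymph nodes. It read 9.35 and 10.44 in WT cDC1s and 9.89, 9.54 and 11.15 in Mbd2KO cDC1s. The WT monocytes read 8.04, 8.17, 8.29, 8.80 and 9.02 and the Mbd2KO monocytes 8.33, 8.31, 8.23, 8.46 and 8.43. The WT macrophages read 8.75, 8.82, 8.65, 9.12 and 8.67 and the Mbd2KO macrophages 8.65, 8.39, 8.76, 8.64 and 8.82. Every cDC1 array lay above every other colon array, and monocytes and macrophages overlapped. *Ccr7* was 3.11-fold higher in cDC1s than in monocytes (log2 difference 1.64, SE 0.21, limma adjusted p 5.15e-07) and 2.50-fold higher than in macrophages (log2 difference 1.32, SE 0.21, limma adjusted p 1.22e-05). With median scaling these differences of *Ccr7* were 1.08 and 0.75 and still passed. Macrophages and monocytes differed by 0.32 (SE 0.17, 95% interval -0.03 to 0.67, limma adjusted p 0.1445), which did not pass. This difference of *Ccr7* passed in 2 of 15 fits that left out no single array (lowest limma adjusted p 0.0256). It passed in 0 of 20 fits with 1 array left out.

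*Cxcr3* was also highest in cDC1s and lowest in monocytes. The cDC1s read 9.71 and 8.40 in WT and 9.29, 9.04 and 8.66 in Mbd2KO. The WT macrophages read 6.49, 6.79, 6.49, 6.68 and 6.50 and the Mbd2KO macrophages 6.25, 6.00, 6.38, 6.18 and 6.37. The WT monocytes read 5.46, 5.72, 5.61, 5.59 and 6.34 and the Mbd2KO monocytes 5.38, 5.14, 5.53, 4.76 and 4.67. The lowest cDC1 array lay above the highest macrophage array, and 1 WT monocyte array, at 6.34, lay within the macrophage range. *Cxcr3* was 12.1-fold higher in cDC1s than in monocytes (log2 difference 3.60, SE 0.18, limma adjusted p 6.66e-14) and 6.11-fold higher than in macrophages (log2 difference 2.61, SE 0.18, limma adjusted p 2.49e-11). It was 1.99-fold higher in macrophages than in monocytes (log2 difference 0.99, SE 0.15, limma adjusted p 1.06e-05), just under a doubling, so a limit of 1 on the log2 scale would leave it out. Without background correction the 3 log2 differences of *Cxcr3* were 2.36, 1.91 and 0.44, and all still passed.

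T cell markers and some NK cell markers were higher on the cDC1 arrays, and T cells and NK cells both carry *Cxcr3* and *Cxcr6*. The summed intensity of 12 T cell markers was 3745 and 1105 on the WT cDC1 arrays and 1977, 4075 and 923 on the Mbd2KO ones, in the order in which *Cxcr3* is given above. It was 512 to 1080 on all monocyte and macrophage arrays and 50774 and 49806 on the T cell arrays. The cDC1 array lowest for these markers, at 923, lay within the range of the other colon cells, and its *Cxcr3* was 8.66, above every macrophage array. *Cd3e*, a T cell receptor subunit, was detected on all 5 cDC1 arrays at 6.11 to 9.12. The summed markers of NK cells or innate lymphocytes were 2211, 1188, 1349, 1940 and 987 on the same 5 arrays, against 524 to 1215 on the monocyte and macrophage arrays. Of 6 tested genes of this list 2 were higher and 2 lower in cDC1s, against monocytes and against macrophages alike. What part T cells or NK cells had in the cDC1 levels was not tested.

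*Cxcr6* was near background in all colon cells. It was detected on both WT cDC1 arrays, at 5.30 and 5.06, and on 2 of 3 Mbd2KO cDC1 arrays, which read 4.33, 4.97 and 4.83, the first not detected. Monocytes detected it on 3 of 10 arrays, at 4.26 to 4.70 over all 10, and macrophages on 4 of 10, at 4.32 to 4.90. The cDC1s were 1.38-fold above monocytes (log2 difference 0.47, SE 0.12, limma adjusted p 0.00161) and 1.31-fold above macrophages (log2 difference 0.39, SE 0.12, limma adjusted p 0.00648), with overlapping arrays. Without background correction these differences of *Cxcr6* were 0.15 and 0.13 and still passed. The second of the calls was lost with median scaling (adjusted p 0.0683) and without WT cDC1 array 23 (adjusted p 0.0527), the cDC1 array with the second highest T cell marker sum. Within WT the 2 differences were 0.72 and 0.67 (limma adjusted p 0.00217 and 0.00361). Within Mbd2KO they were 0.22 and 0.12 (limma adjusted p 0.269 and 0.575) and did not pass.

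*Cxcr4*, like *Cx3cr1*, was lowest in cDC1s. The WT cDC1s read 9.01 and 9.34 and the Mbd2KO cDC1s 9.10, 8.61 and 9.67, all below every monocyte and macrophage array. It was 2.62-fold lower in cDC1s than in monocytes (log2 difference -1.39, SE 0.15, limma adjusted p 2.22e-08) and 2.84-fold lower than in macrophages (log2 difference -1.51, SE 0.15, limma adjusted p 6.20e-09). Macrophages and monocytes differed by 0.12 (SE 0.12, 95% interval -0.12 to 0.36, limma adjusted p 0.465).

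**Figure D2:**
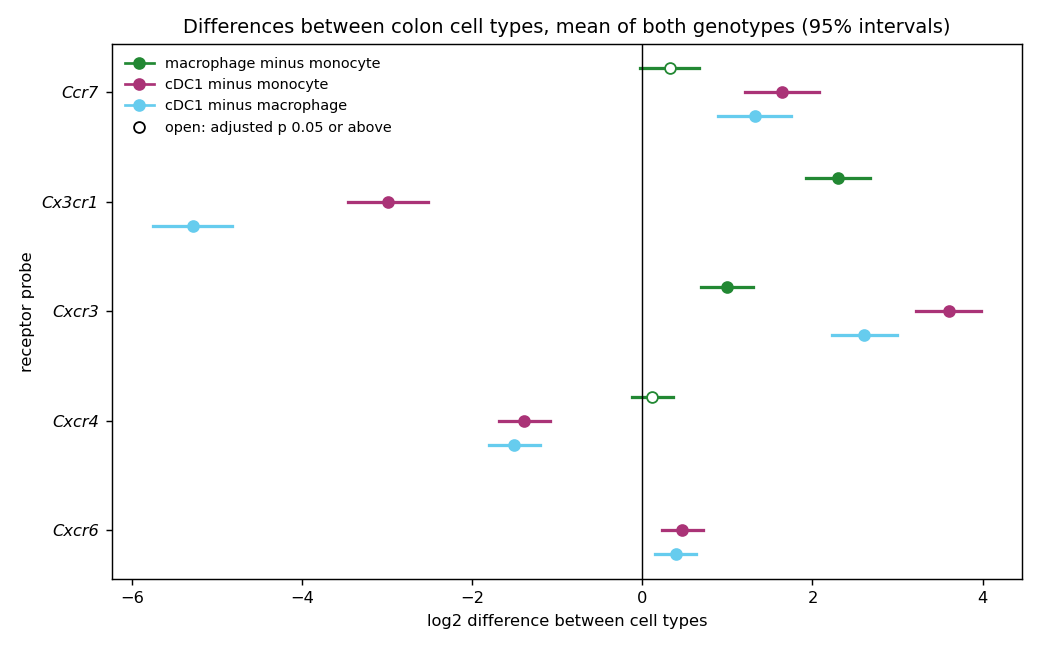
Log2 differences between colon cell types, averaged over both genotypes, for the 5 receptors that could be tested, with 95% intervals (x axis: log2 difference, y axis: receptor, filled points: adjusted p under 0.05). *Cx3cr1* spans the widest range, from 2.30 above monocytes in macrophages to -5.29 in cDC1s against macrophages. The points of *Ccr7* and *Cxcr4* for macrophages against monocytes are open.

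Cell type differences were common on these arrays, so the counts of receptors are read beside those over all probes. Between macrophages and monocytes 2 of 4 tested receptors passed, against 38.6% of all tested probes, and 1 of 4 had arrays that did not overlap, against 7.68%. Between cDC1s and monocytes 5 of 5 passed, against 53.4%, and 4 of 5 did not overlap, against 26.2%. Between cDC1s and macrophages the counts were again 5 of 5 and 4 of 5, against 52.9% and 21.4%. The arrays' columns in the table run in sixes, as a BeadChip of this type holds 6 arrays, and chips are not named. All monocytes stand in the first sixes and all macrophages in the next, so for macrophages against monocytes the cell type and the column position cannot be told apart. Each such set of columns that held cDC1s beside monocytes or macrophages showed the order given above for *Ccr7*, *Cx3cr1*, *Cxcr3* and *Cxcr4*, because those arrays did not overlap.

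Among the genotype comparisons, *Cxcr4* in macrophages was the only receptor to pass. The 5 WT macrophage arrays read 10.79, 11.17, 11.12, 10.94 and 11.13, and the 5 Mbd2KO arrays 10.23, 10.06, 10.69, 10.40 and 10.06. The highest Mbd2KO array stayed below the lowest WT array. *Cxcr4* fell by 0.74 on the log2 scale in Mbd2KO macrophages, a 1.67-fold difference (SE 0.17, 95% interval -1.08 to -0.40, limma adjusted p 0.0148). It passed in each of the 10 fits that left out 1 macrophage array, at adjusted p 0.00772 to 0.0478. Within the sixes of columns that hold both genotypes the difference was -0.88 and -0.65. The call was lost with median scaling (log2 difference -0.82, adjusted p 0.132), with a fit on macrophages alone (adjusted p 0.0548) and with the sixes as a fixed block (adjusted p 0.0558), and the fold was under 2 in all fits.

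Some monocyte markers moved with genotype in the macrophages. Of 8 tested monocyte markers 2 were higher in Mbd2KO macrophages, *Ly6c1* by 0.91 and *Plac8* by 0.45 on the log2 scale, and the summed intensity of the 9 markers was 10962 to 14152 in WT and 12874 to 16262 in Mbd2KO macrophages. The mean of *Cxcr4* was 10.29 in Mbd2KO and 11.03 in WT macrophages, and 10.26 in Mbd2KO and 10.82 in WT monocytes. The summed markers of lymphocytes ranged lower in Mbd2KO macrophages. They were 567 to 1417 against 999 to 1850 in WT for 9 B or plasma cell genes. For 10 genes of NK cells or innate lymphocytes they were 584 to 910 against 907 to 1215. Of the tested genes of the 2 lists 1 of 7 and 2 of 5 were lower and 0 higher, with medians of -0.36 and -0.07. The part of any of these cells in the *Cxcr4* difference was not tested. In bulk sorts of this kind fewer cells carrying a transcript and less transcript per cell cannot be told apart.

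In monocytes *Cxcr4* was lower in the same direction without passing. The WT monocytes read 10.76, 11.00, 10.98, 10.64 and 10.71 and the Mbd2KO monocytes 10.39, 9.93, 10.53, 10.09 and 10.36. The groups did not overlap. The log2 difference was -0.56 (SE 0.17, 95% interval -0.90 to -0.22, limma adjusted p 0.0919), and it was -0.75 and -0.35 within the sixes. With array weights it passed (adjusted p 0.0192). The summed B or plasma cell markers were 388 to 671 in Mbd2KO and 663 to 890 in WT monocytes, and their part in the difference was not tested. In cDC1s the difference of *Cxcr4* was -0.05 (95% interval -0.54 to 0.45, limma adjusted p 0.930), with overlapping arrays. The effects in cDC1s and macrophages differed by 0.69 (SE 0.29, limma adjusted p 0.1455), those in cDC1s and monocytes by 0.51 (SE 0.29, limma adjusted p 0.387) and those in macrophages and monocytes by -0.18 (SE 0.23, limma adjusted p 0.918), so a difference of the effect between cell types was not shown.

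*Cxcr3* was lower in Mbd2KO arrays of both monocytes and macrophages, and neither difference passed. In monocytes it was -0.65 (SE 0.21, 95% interval -1.08 to -0.21, limma adjusted p 0.126), and 1 Mbd2KO array at 5.53 overlapped the WT arrays. In macrophages it was -0.36 (SE 0.21, 95% interval -0.79 to 0.07, limma adjusted p 0.306) although all 5 Mbd2KO arrays lay below all 5 WT arrays. In cDC1s it was -0.06 (95% interval -0.68 to 0.57, limma adjusted p 0.934). NK cells also carry *Cxcr3*, and the summed markers of NK cells or innate lymphocytes ranged lower in Mbd2KO. They were 524 to 636 against 615 to 1044 in WT monocytes and 584 to 910 against 907 to 1215 in WT macrophages. Most genes of the list did not pass. Of 5 tested, 1 was lower in monocytes (median -0.37) and 2 in macrophages (median -0.07), and 0 were higher. The part of NK cells in the *Cxcr3* differences was not tested.

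*Cx3cr1* was lower in Mbd2KO monocytes by a mean of 0.66 that did not pass (log2 difference -0.66, SE 0.26, 95% interval -1.19 to -0.13, limma adjusted p 0.225), and the WT array at 7.81 lay among the Mbd2KO arrays. In macrophages the difference was -0.20 (95% interval -0.73 to 0.33, limma adjusted p 0.666) and in cDC1s 0.29 (95% interval -0.48 to 1.06, limma adjusted p 0.680). *Ccr7* differed by -0.11 in monocytes (95% interval -0.61 to 0.38, limma adjusted p 0.888), by -0.15 in macrophages (95% interval -0.65 to 0.34, limma adjusted p 0.739) and by 0.30 in cDC1s (95% interval -0.42 to 1.01, limma adjusted p 0.646). Its genotype intervals thus all contained 0. *Cxcr6* could be tested for genotype in cDC1s alone, where the Mbd2KO arrays lay below the WT arrays (log2 difference -0.47, SE 0.19, limma adjusted p 0.132).

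**Figure D3:**
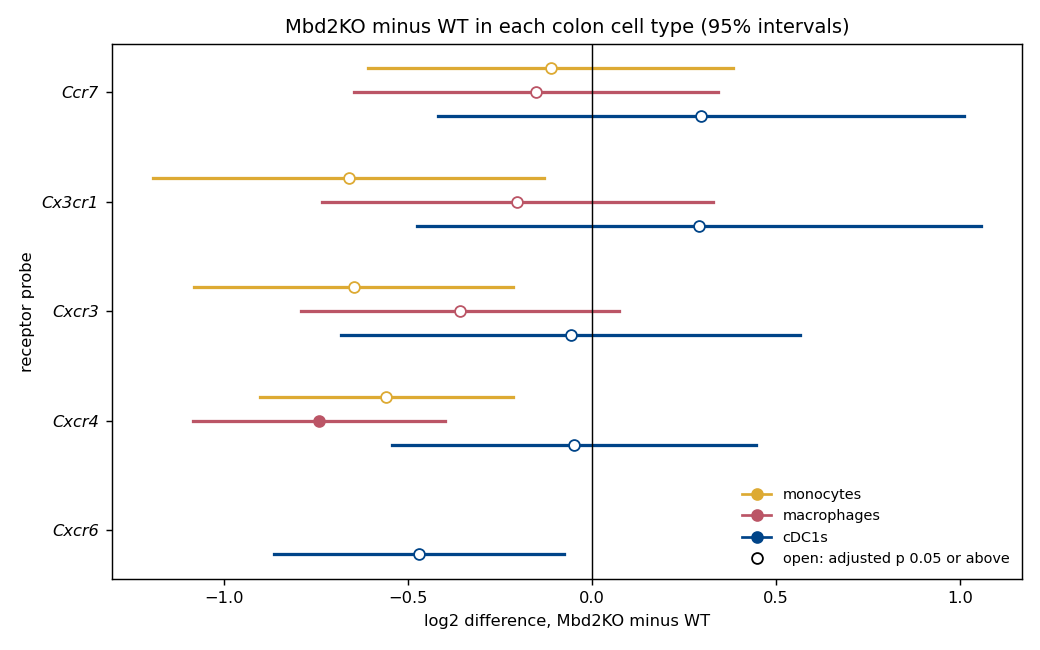
Log2 differences between Mbd2KO and WT with 95% intervals for the 5 testable receptors in monocytes, macrophages and cDC1s (x axis: Mbd2KO minus WT, y axis: receptor, filled point: adjusted p under 0.05, open: not). The only filled point is *Cxcr4* in macrophages at -0.74, and the intervals of all 4 receptors tested in every cell type are widest in cDC1s.

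In all, 0 of 4 tested receptors passed in monocytes by limma (3 at an unadjusted p under 0.05), where 1.8% of all tested probes passed. In macrophages 1 of 4 passed, where 5.66% of all probes did, and in cDC1s 0 of 5 (1 at an unadjusted p under 0.05), where 6.61% did. Arrays of the genotypes did not overlap for 1 of 4 receptors in monocytes, 2 of 4 in macrophages and 1 of 5 in cDC1s, against 4.85%, 5.28% and 31.8% of tested probes. When genotype effects were compared between cell types, 0 of 5 receptors passed for macrophages minus monocytes, 0 of 5 for cDC1s minus monocytes and 0 of 6 for cDC1s minus macrophages (0, 2 and 2 at an unadjusted p under 0.05), where 0.0266%, 0.892% and 6.62% of probes did. The WT cDC1 columns stand beside monocytes and the Mbd2KO cDC1 columns beside macrophages and T cells, so for cDC1s genotype and column position cannot be told apart.

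The cDC1 arrays of one genotype differed among themselves by more than the genotype means did for *Ccr7*, *Cx3cr1*, *Cxcr3* and *Cxcr4*. For *Ccr7*, *Cx3cr1* and *Cxcr4* alike the highest array was Mbd2KO array 30, followed by WT array 26 and then Mbd2KO array 27. The summed intensity of 11 markers of migratory or mature dendritic cells was 14177, 15565 and 12998 on these arrays, and 10626 and 9413 on WT array 23 and Mbd2KO array 28, the lowest for all 3 receptors. The same sum was 9814 to 13697 on monocyte and 10854 to 15268 on macrophage arrays, so it did not set cDC1s apart from the other sorts. Arrays 23 and 28 were also the highest in T cell and NK cell markers. The summed epithelial markers were 16515 and 10485 on arrays 23 and 28, and 5197, 4402 and 10642 on arrays 30, 26 and 27. The part of the cells' state or of these other cells in the spread was not tested.

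The splenic CD4 T cells carried all 12 T cell markers and a receptor pattern of their own. With all 27 arrays normalized together, *Cxcr6*, the Cxcl16 receptor of tissue T cells, read 10.54 in WT and 9.17 in Mbd2KO T cells, and 1397 and 399 in deposited intensity. No colon array read it above 5.30, so the probe was bright in the one cell type and near background in the others. *Cxcr3* read 11.36 and 10.99, above every colon array. *Cxcr4* read 6.38 and 5.43, below every colon array, and *Ccr7* read 7.35 in Mbd2KO and 6.60 in WT, also below every colon array. *Cx3cr1* read 7.50 and 7.90, between the cDC1s and the macrophages.

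**Figure D4:**
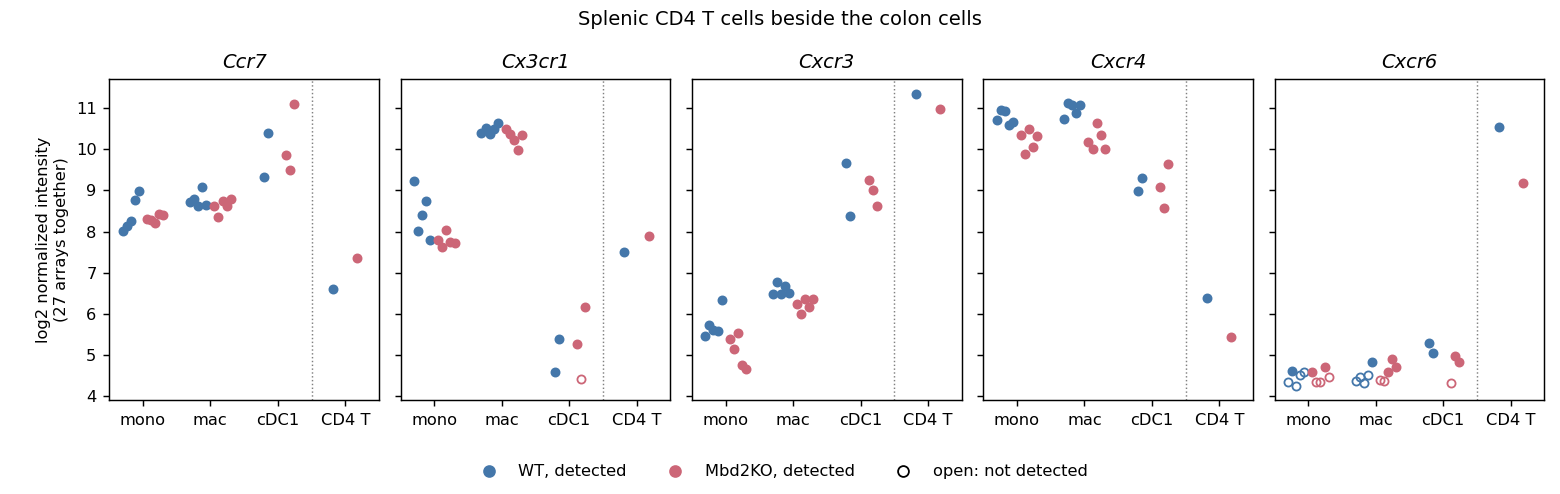
Log2 normalized intensity of 5 receptors with all 27 arrays normalized together, for colon monocytes, macrophages and cDC1s and, right of the dotted line, splenic CD4 T cells (1 point per array, blue WT, red Mbd2KO, open not detected). *Cxcr3* and *Cxcr6* are highest and *Ccr7* and *Cxcr4* lowest in the T cells, at 11.36 and 10.54 for the first pair on the WT array.

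Against the mean of the colon arrays, *Cxcr3* was higher by 4.83 on the WT and 4.46 on the Mbd2KO T cell array on the log2 scale. *Cxcr4* was lower, at -3.89 and -4.83, and *Ccr7* at -2.24 and -1.49. With 1 array per genotype, another tissue and another model, these differences have no replicate check, and organ, model and cell type cannot be told apart. The T cell arrays also differed in neutrophil markers, 9 genes with a summed intensity of 19276 on the WT and 4197 on the Mbd2KO array, and the part of such cells in the receptor values was not tested.

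The ligands of the 8 receptors were listed as well. Of 19 listed ligands 16 were on the array and 15 were tested. For genotype 0 of 15 passed in any cell type by limma (4, 4 and 3 at an unadjusted p under 0.05 in monocytes, macrophages and cDC1s), and the median log2 difference was 0.09 in monocytes, 0.07 in macrophages and 0.12 in cDC1s, beside -0.02, -0.07 and 0.03 over all tested probes. The Cxcr3 ligands *Cxcl9* and *Cxcl10* were singled out after their values were seen. *Cxcl10* differed by 1.64 in monocytes (limma adjusted p 0.126) and by 1.74 in macrophages (limma adjusted p 0.0531), and *Cxcl9* by 1.53 (limma adjusted p 0.0910) and 1.31 (limma adjusted p 0.0833), without passing. Macrophages exceeded monocytes in 5 ligands and were lower in 1, so 6 of 15 passed where 38.6% of all tested probes did (median 0.24, beside -0.00076 over all probes). *Ccl7*, a Ccr2 ligand, read 12.31 ± 0.28 (SD, n = 10) in macrophages and 9.91 ± 0.39 (SD, n = 10) in monocytes. *Cxcl16*, the Cxcr6 ligand, read 12.49 ± 0.19 in macrophages and 11.72 ± 0.29 in monocytes. *Ccl3*, a ligand of Ccr1, read 11.81 ± 0.42 and 10.62 ± 0.40. The other 2 higher ligands were *Ccl4* and *Ccl2*, and the lower one was the Cxcr3 ligand *Cxcl10* (log2 difference -1.06, SE 0.37, limma adjusted p 0.0275).

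The cDC1s had lower levels of 8 of 15 ligands in either comparison, among them the Ccr1 ligands *Ccl6* and *Ccl9*. Against monocytes 8 ligands were lower and 1 higher, where 53.4% of all tested probes passed (median -0.61, beside -0.01 over all probes), and against macrophages again 8 and 1, where 52.9% passed (median -0.88, beside -0.01). *Ccl5*, which also binds Ccr1, differed by -0.01 against monocytes (limma adjusted p 0.975) and by -0.15 against macrophages (limma adjusted p 0.688). *Ccl9*, a Ccr1 ligand, read 8.23 ± 0.50 (SD, n = 5) in cDC1s, 12.96 ± 0.36 in monocytes and 12.97 ± 0.28 in macrophages. *Ccl6*, another, read 6.19 ± 0.30 in cDC1s, 9.71 ± 0.35 in monocytes and 9.95 ± 0.52 in macrophages. *Ccl2*, the main Ccr2 ligand, was lower by 1.71 against monocytes (limma adjusted p 9.97e-06), and *Ccl7* was lower by 3.77 against macrophages (limma adjusted p 2.11e-12). The ligand that was higher in both comparisons was *Cx3cl1*, at 6.31 ± 0.40 in cDC1s, 5.79 ± 0.31 in monocytes and 5.71 ± 0.30 in macrophages. By genotype its cDC1 means were 5.92 in WT and 6.57 in Mbd2KO (limma adjusted p 0.132). The WT and Mbd2KO means were 5.84 and 5.74 in monocytes and 5.79 and 5.64 in macrophages. Over both genotypes *Cx3cl1* was therefore higher where its receptor *Cx3cr1* was lowest, but the WT cDC1s were close to the other WT cells.

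Other chemoattractant receptors were compared from a list of which 22 reported genes were on the array. For genotype 1 of 11 tested was higher in monocytes, the interleukin 8 receptor *Il8ra* (5.42 ± 0.45 in Mbd2KO, 4.48 ± 0.07 in WT, SD, n = 5 each, limma adjusted p 0.00266). The WT mean lay below 4.57, the lowest value detected on any WT monocyte array, so the WT side was at background. The summed neutrophil markers were 4759 to 6316 in Mbd2KO and 1801 to 5883 in WT monocytes, with 0 of 6 tested genes passing. The part of neutrophils in the *Il8ra* difference was not tested. In macrophages 1 of 9 was higher and 1 lower. The formyl peptide receptor *Fpr1* was higher by 1.08 in Mbd2KO macrophages (limma adjusted p 0.0118), and the leukotriene B4 receptor *Ltb4r1* was lower, at 8.31 ± 0.22 against 9.25 ± 0.27 in WT (limma adjusted p 0.00134). In cDC1s 2 of 11 were higher, *Fpr2* by 1.28 (limma adjusted p 0.0277) and *Gpr44*, a prostaglandin D2 receptor, by 0.50 (limma adjusted p 0.0486), but 0 passed without WT array 23 and 1 without any other cDC1 array. Over all tested probes 1.8% passed in monocytes, 5.66% in macrophages and 6.61% in cDC1s. The median log2 differences of the list were 0.11, 0.06 and 0.22 in the 3 cell types, beside -0.02, -0.07 and 0.03 over all probes.

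Between cell types 5 of 10, 9 of 13 and 7 of 12 of these receptors passed for macrophages against monocytes, cDC1s against monocytes and cDC1s against macrophages, where 38.6%, 53.4% and 52.9% of all tested probes did. Macrophages were higher than monocytes in 2 of 10, *Cxcr5* (by 1.22) and *Ccr6* (by 0.82), and lower in 3, *Ltb4r1* (-2.17), *Fpr2* (-0.88) and *Il8rb* (-0.52), with a median of 0.12. Against monocytes the cDC1s were higher in 3 of 13 and lower in 6 (median -0.29), and against macrophages higher in 2 of 12 and lower in 5 (median -0.26). *Xcr1*, the receptor that defines cDC1s and was on the marker list, read 8.12 ± 0.32 (SD, n = 5) in cDC1s against 4.42 ± 0.16 in monocytes and 4.57 ± 0.21 in macrophages. *Fpr2* read 6.72 ± 0.77 in cDC1s, 12.28 ± 0.45 in monocytes and 11.41 ± 0.48 in macrophages. *Ltb4r1* read 6.79 ± 0.27 in cDC1s and 10.95 ± 0.22 in monocytes, and *Ccrl2*, a chemerin-binding receptor, 9.69 ± 0.45 in cDC1s and 12.40 ± 0.29 in macrophages. *Fpr2*, *Ltb4r1* and *Ccrl2* were thus lowest in cDC1s, as *Cxcr4* and *Cx3cr1* were.

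The genes whose profile over the 25 colon arrays was nearest to that of a receptor were sought among 14388 candidate genes by the root mean square difference of centred log2 values. For *Cx3cr1*, whose own profile had an SD of 1.99, they were the lysosomal gene *Ctsa* (0.49), the mannose receptor *Mrc1* (0.50) and the complement gene *C1qc* (0.51), and the last 2 were on the macrophage marker list. For *Cxcr3* they were *1110012O05Rik* (0.37), *Egr3* (0.38) and the class II gene *H2-Ob* (0.38), with a profile SD of 1.37. For *Ccr7* they were *Pkmyt1* (0.22), *2410015C20Rik* (0.27) and *Fgfbp3* (0.29), and for *Cxcr4* *Atp6v0a1* (0.23), *Ralgps1* (0.27) and *Mtr* (0.27), with profile SDs of 0.72 and 0.69. In monocytes and macrophages the group means of the 3 genes nearest to *Ccr7* were 4.40 to 5.01, near background. The points share arrays and cell types, so these distances describe the cell type pattern in the first place.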

How the data were processed

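RNA from FACS-purified cells was labelled and hybridized to Illumina MouseWG-6 BeadChips, with pools of mice as replicates (1 to 5 mice in the deposited design, 1 to 10 in the study's methods). The authors deposited bead intensity values without normalization or background subtraction and unadjusted detection p-values. The deposited table was matched to samples by array number, and 3 further signal columns of no sample were not used. The submitters' notes name lumi and limma without versions, and the methods do not name the normalization.

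Here intensities were corrected by normexp with 936 negative control probes (offset 16), quantile normalized over the 25 colon arrays and taken to log2. For T cells all 27 arrays were normalized together. One model over 6 groups was fitted in limma 3.58.1 (R 4.3.3, data.table version 1.17.8), two-sided, with Benjamini-Hochberg adjustment within a comparison, and adjusted p under 0.05 passed. A probe was tested where the arrays detecting it (p under 0.05) numbered no fewer than the smaller side of the comparison. The code was tested on simulated data. A log2 difference near background is understated, since the offset is added. Precision is limited by 2 to 5 arrays a group.

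The 8 receptors and all lists were chosen with earlier results of these data known. From each list up to 3 passing genes per comparison with the smallest adjusted p were named, others only where counts were 5 or fewer or where they were followed into another cell type, chosen after their values were seen. A list gene was represented by its brightest probe, and 1 listed gene is not reported here. Nearest profiles were sought for receptors detected on all arrays of a group whose group means spanned at least 1, among genes detected on at least 5 colon arrays. Alternatives were background correction, normalization, detection filter, thresholds, array weights, blocks, samples in the fit and each array left out. Gene positions and sequences came from RefSeq tables of GRCm38.p6, to which 27655 of 36692 probes with an accession matched by accession.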

Additional observations from a re-analysis of the deposited data

How the results depend on the processing

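The cell type calls of *Cx3cr1*, and those of *Ccr7*, *Cxcr3* and *Cxcr4* between cDC1s and the other cells, passed in all fits, including each array left out. The *Cxcr4* call in macrophages was lost (count of receptors passing 0 in place of 1) with a log2 fold limit of 1 at adjusted p under 0.05 or under 0.01, median scaling, macrophages fitted alone and the sixes of columns as a fixed block, an alternative chosen after seeing the data. With either fold limit 1 receptor passed between macrophages and monocytes in place of 2, and 4 in place of 5 for cDC1s against either, without *Cxcr6*. Without adjustment 3 receptors passed for genotype in monocytes, 1 in cDC1s, and 2 each for cDC1s minus monocytes and minus macrophages. Array weights gave 1 in monocytes. Median scaling turned the cDC1 *Ccr7* difference to -0.21 and moved the median genotype difference of all probes to -0.26 in monocytes and -0.37 in cDC1s. With 1 array left out, the genotype difference ranged from -0.22 to 0.03 for *Ccr7* in monocytes, at 0.028 without WT array 5, and in cDC1s from -0.25 to 0.84 for *Ccr7*, -0.16 to 0.74 for *Cx3cr1*, -0.71 to 0.60 for *Cxcr3* and -0.32 to 0.21 for *Cxcr4*, so with 2 WT arrays no direction is given there.

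For T cells against the colon mean, without background correction *Ccr7* was -1.66 on the WT array, *Cxcr3* 3.89 (WT) and 3.54 (Mbd2KO), and *Cxcr4* -3.07 and -3.51. With an offset of 50 *Cxcr3* was 4.28 and 3.92, and *Cxcr4* -3.43 and -4.04. *Cxcr3* on the Mbd2KO array was 3.59 with median scaling and 3.90 with cyclic loess, which gave -3.39 and -3.90 for *Cxcr4*.

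No paired analysis was possible because each array number in the labels belongs to 1 array of 1 group. Sixes of columns as a random block (consensus correlation 0.03), or pairs of numbers that differ by 10 (0.13), changed the call of no receptor.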

Other observations

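Genes that carry or end the receptors' signal were listed too, 19 on the array. For genotype 1 of 15 was lower in monocytes, the G protein subunit *Gnai2* (11.76 ± 0.13 in Mbd2KO and 12.18 ± 0.11 in WT, SD, n = 5 each, limma adjusted p 0.0482), with 1 of its 2 probes passing. In macrophages 1 of 16 was higher, the subunit *Gnb1* (by 1.08, limma adjusted p 0.0274), and 2 were lower, *Plcb2* (log2 difference -0.48, limma adjusted p 0.0281) and *Rgs2* (-0.48, limma adjusted p 0.0447). In cDC1s *Rgs2*, a regulator that shortens G protein signals, was the 1 of 15 that was lower (-0.92, limma adjusted p 0.0107). Of all tested probes 1.8% passed in monocytes, 5.66% in macrophages and 6.61% in cDC1s, and the cDC1 count was near that share. With 1 array of the compared groups left out the counts were 0 to 1 in monocytes, 0 in 8 of 10 such fits, 0 to 3 in macrophages, 0 without WT array 12 or 14 or Mbd2KO array 19 or 20, and 0 to 3 in cDC1s, 0 without WT array 23 and 3 without Mbd2KO array 27.

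Between cell types 6 of 15 signalling genes were higher in macrophages than in monocytes and 0 lower, where 38.6% of all tested probes passed, with a median of 0.07. *Rgs1*, another such regulator, read 12.27 ± 0.32 (SD, n = 10) in macrophages and 10.42 ± 0.41 in monocytes, and its 3 probes all passed. *Rgs10* read 11.88 ± 0.06 and 11.23 ± 0.19, and *Plcb2*, a phospholipase, 7.88 ± 0.32 and 7.18 ± 0.26. In cDC1s *Plcb2* read 9.01 ± 0.19 (SD, n = 5), above both other cell types. The cDC1s were higher than monocytes in 6 of 15 and lower in 3, where 53.4% of all probes passed, and higher than macrophages in 5 of 16 and lower in 2, where 52.9% did.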
